A study of Mus musculus with 6 samples.

Results

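The DNA repair genes described here are the 41 genes of the deposited expression table, out of 8191 listed, whose symbols follow the naming of the repair families (Ercc, Xrcc, Rad, Fanc, Msh, Mlh, Parp, Lig, Neil, Rpa and Brca) or match a short set of named repair genes such as Polg, Apex1, Xpa, Ddb1 and Trp53. The rule uses symbols alone, although it was set with earlier results of these data known. The same naming rule fitted 88 protein-coding genes of the mouse annotation, and those beyond the 41, among them Atm, Atr, Brca2, Parp1 and the end joining genes Lig4, Xrcc4, Xrcc5 and Xrcc6, were not analysed here. RNA was sequenced from cells labelled as splenic myeloid-derived suppressor cells (MDSCs) of aged mice of 3 genotypes, wild-type (WT), Tnfr1-/- and Tnfr2-/-, with 2 samples of each. The knockout mice lack a receptor for TNF-alpha (TNFR1 or TNFR2), all mice were on a BALB/c background and 18 to 24 months old, and the cells of 5 mice were pooled for each sample without culture or treatment. The design asks how the aged cells differ with either receptor missing. It holds no young cells.

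Cells repair DNA by several routes that read different kinds of damage. Base excision repair removes small chemical lesions and seals nicks, nucleotide excision repair cuts out bulky lesions such as those made by ultraviolet light, and mismatch repair corrects copying errors. The Fanconi anaemia pathway unhooks links between strands, and homologous recombination mends breaks with the sister chromatid as a template, so many of these genes are most active in dividing cells. In myeloid cells, which make reactive oxygen and often stop dividing as they mature, base excision repair is the route used for oxidised bases.

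Tnfrsf1b, the gene of TNFR2, was lowest in the Tnfr2-/- samples, at 11.3 and 14.3 FPKM against 112 and 115 FPKM in WT and 47.8 and 69.6 FPKM in Tnfr1-/- samples, and Tnfrsf1a, which encodes TNFR1, is not among the genes used here. The samples differed beyond the repair genes in ways that touch every comparison with WT. Levels are in FPKM, a unit corrected for transcript length and sequencing depth, so that levels of different genes can be compared. All listed genes together came to 344714 and 346870 FPKM in the WT columns against 133604 to 155248 FPKM in the knockout columns, and WT values carry up to 10 digits where the others carry 6. Processing and genotype cannot be told apart here. Changes are therefore given as deposited and after median-ratio scaling, which sets the typical listed gene equal between samples. Every listed gene had also passed the ANOVA filter of the authors over the genotypes, so a difference somewhere among them was a condition of being listed. The cell markers moved with genotype too. Ly6c1, which belongs to the Ly6 genes behind the Gr-1 epitope that defines MDSCs, was at 0.159 and 0.0638 FPKM in the WT samples and at 95.8 to 178 FPKM in the knockouts, whereas Ly6g and Itgam were not analysed here. Summed over 9 of 9 macrophage markers, the level was 2550 and 2640 FPKM in WT and 156 to 182 FPKM in the knockouts, although Cd163, a defining marker of them, was near 0 in WT at 0.347 and 0.359 FPKM. The 3 listed granulocyte markers of 10 summed to 15.4 and 13.7 FPKM in WT and to 1520 to 3070 FPKM in the knockouts, and 4 of 5 B cell markers to 46.5 and 46.9 FPKM against 167 to 382 FPKM. Dendritic cell markers (3 of 5 listed) summed to 220 and 217 FPKM in WT and 14.1 to 19.5 FPKM in the knockouts, of which Itgax made up most, while Flt3 was higher in the knockouts, at 1.21 to 2.34 against 0.156 and 0.26 FPKM. Monocyte markers (5 of 6) summed to 245 and 258 FPKM in WT and 307 to 725 FPKM in the knockouts, although Csf1r was lower there, at 71.3 to 171 against 225 and 237 FPKM, and T or NK cell markers (2 of 6) summed to 8.47 and 10.8 against 15.6 to 38.7 FPKM. The listed markers thus go against the MDSC label of the WT samples, and whether the WT and knockout samples hold the same cell population is not known here. The part of these cell types in the results below was not tested, and in such bulk samples fewer cells of a type and less RNA per cell cannot be told apart.

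As a group, the repair genes were expressed at moderate levels, and their summed level was lower in the knockouts. Together the 41 genes reached 467 and 462 FPKM in WT, 209 and 193 FPKM in Tnfr1-/- and 204 and 235 FPKM in Tnfr2-/- samples. Their share of the listed FPKM was 0.136% and 0.133% in WT, 0.155% and 0.144% in Tnfr1-/-, and 0.137% and 0.151% in Tnfr2-/- samples. Both WT samples thus had the lowest shares, with a narrow gap to the first Tnfr2-/- sample. Ddb1, the adaptor of the ubiquitin ligase that recognises ultraviolet lesions, had the highest level in every sample, from 25.4 to 83.8 FPKM. At the low end, Msh5 was lowest in WT at 0.165 and 0.201 FPKM, and the recombination gene Rad51b or the glycosylase gene Neil2 was lowest in the knockout samples.

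**Figure D1:**
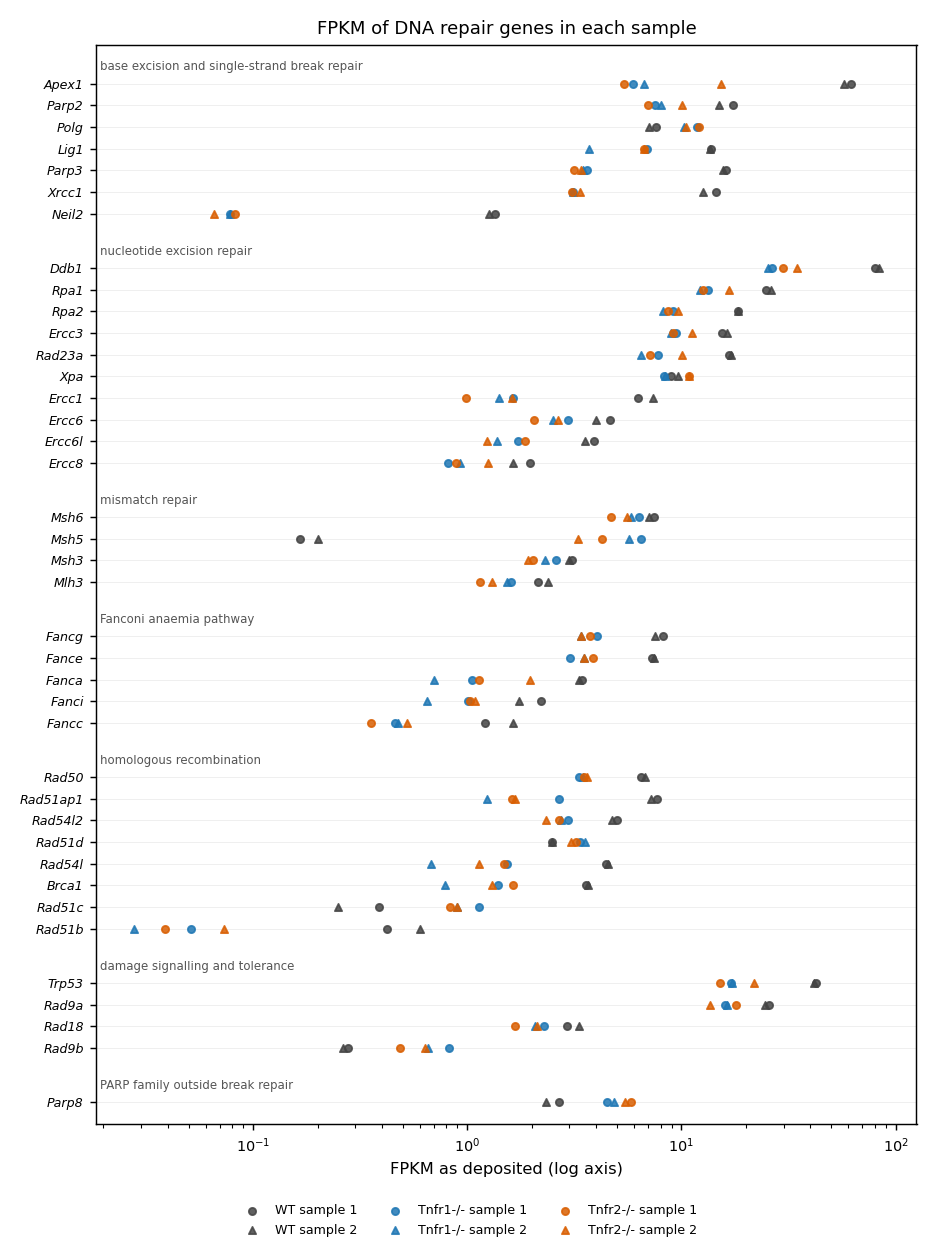
FPKM as deposited (log axis) of 39 of the 41 DNA repair genes, grouped by role and ordered by mean level, with 1 point per sample, circles for sample 1 and triangles for sample 2. The grey WT points lie to the right of both knockouts for most genes, whereas for Msh5 they lie far to the left, at 0.165 and 0.201 FPKM against 3.28 to 6.46 FPKM.

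Compared with WT, most repair genes were lower in both knockouts as deposited, and the pattern depended on the scaling. A gene is called here at a Benjamini-Hochberg adjusted p under 0.05 from limma and a fold change over 1.5 on the log2(FPKM + 1) scale, on which the change of genes under about 1 FPKM is understated; SE is the standard error of a log2 change. In Tnfr2-/- against WT, 27 of the 41 genes were called lower and 2 higher, where 57.1% of all 8191 genes were called lower and 13.6% higher. In Tnfr1-/- against WT, 27 were called lower and 3 higher, where 60.7% of all genes were called lower and 14.1% higher. The median log2 change of the repair genes was -0.78 and -0.89 in these comparisons, beside -0.74 and -0.83 for all listed genes. The comparisons share the 2 WT samples.

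After median-ratio scaling, the repair genes were spread evenly around no change. In Tnfr2-/- against WT, 6 genes were called lower and 6 higher, where 21% of all genes were called lower and 21.9% higher. In Tnfr1-/- against WT, 6 were called lower and 9 higher, against 22.2% and 23.3% of all genes. The median log2 change of the repair genes was then 0.01 and 0.05, and that of all genes -0.03 in both. Of the repair genes, 65.9% were thus called lower in each knockout as deposited and 14.6% after scaling, somewhat above and somewhat below the shares of all listed genes. Of the 41, 7 genes were called in the same direction in both knockouts under both scalings. Apex1, Xrcc1, Parp3, Neil2 and Ercc1 were lower, and Msh5 and Parp8 were higher. These are 12.2% called lower and 4.88% called higher, where 18.9% and 12.4% of all 8191 genes met the same conditions, so such genes were not more common among the repair genes.

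**Figure D2:**
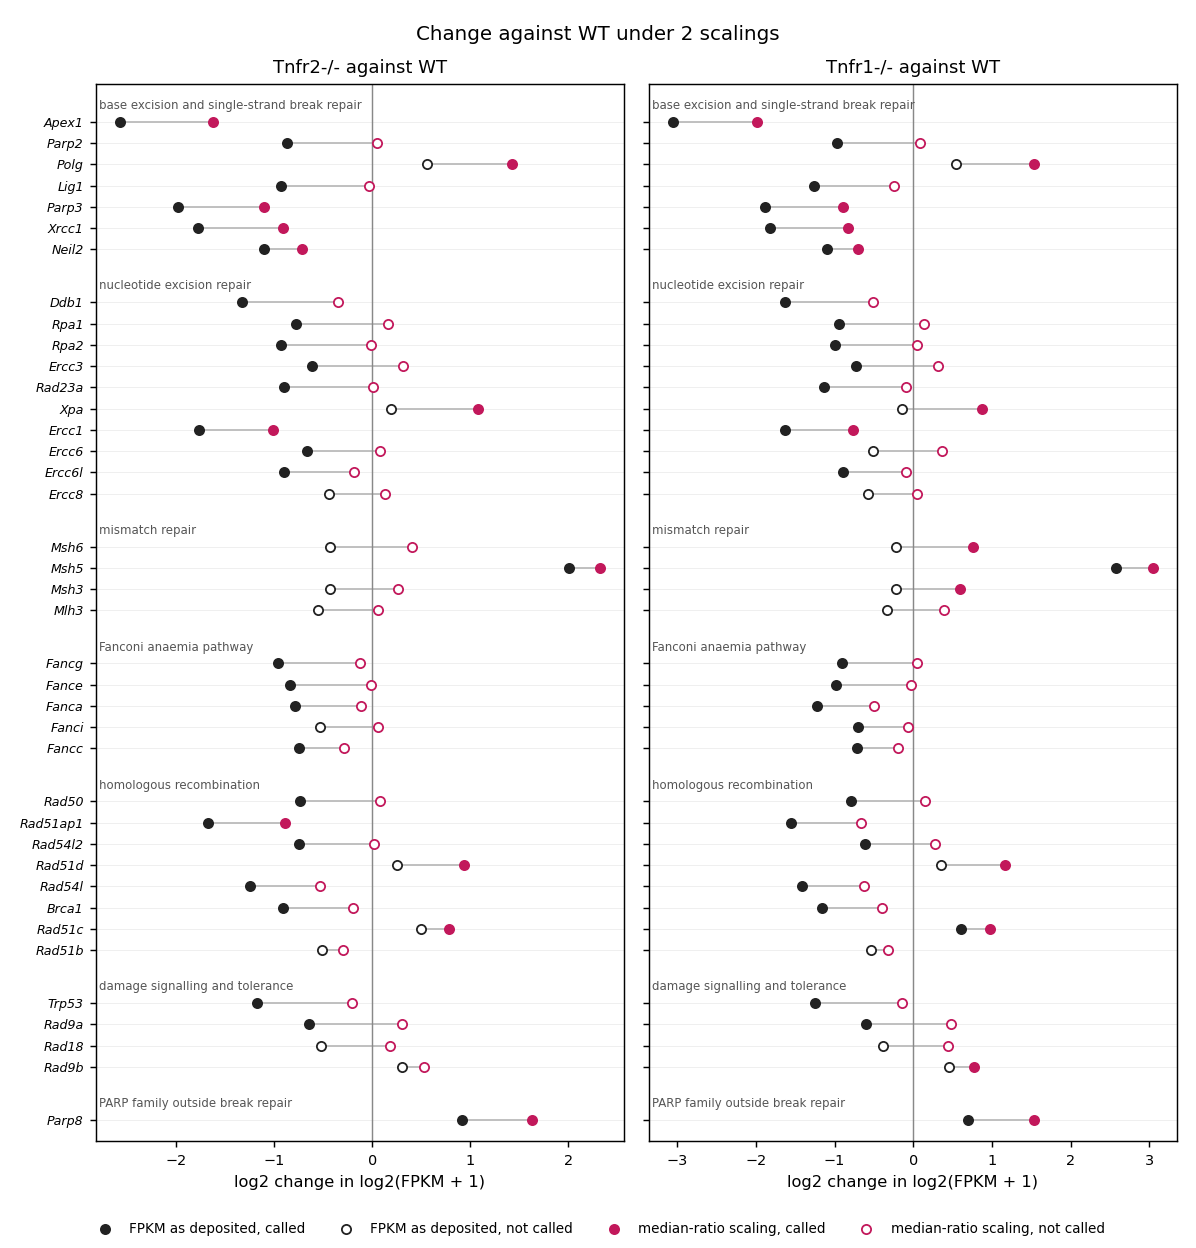
Log2 change of 39 DNA repair genes against WT on the log2(FPKM + 1) scale in Tnfr2-/- (left) and Tnfr1-/- (right) MDSCs, with FPKM as deposited (black) and after median-ratio scaling (red), joined by a line; filled points are called. Scaling moved the genes to the right, and Apex1, Xrcc1, Parp3, Neil2 and Ercc1 stayed called on the left of 0.

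The base excision and single-strand break repair genes held 4 of the 5 genes called lower in both knockouts as deposited and after median-ratio scaling. Of 7 listed, all but Polg were called lower against WT in either knockout as deposited. After median-ratio scaling 4 were called lower and 1, Polg, higher. Among all genes, 57.1% in Tnfr2-/- and 60.7% in Tnfr1-/- were called lower as deposited, and 21% and 22.2% after scaling. The median log2 change of the 7 was -1.10 in Tnfr2-/- and -1.26 in Tnfr1-/- MDSCs, and -0.72 and -0.70 after scaling. The lower genes span the pathway, from a glycosylase through the nuclease that cuts at the lost base to the scaffold that assembles the sealing enzymes.

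Apex1 encodes the main endonuclease at sites that have lost their base. It was expressed at 62.0 and 57.1 FPKM in WT, 5.92 and 6.70 FPKM in Tnfr1-/-, and 5.40 and 15.3 FPKM in Tnfr2-/- samples. Both WT samples were far above all knockout samples, and the second Tnfr2-/- sample was the highest of the knockouts. Its mean level was 9.44-fold lower in Tnfr1-/- and 5.76-fold lower in Tnfr2-/- than in WT samples. The log2 change was -3.05 (SE 0.44, adjusted p = 0.00164) and -2.57 (SE 0.44, adjusted p = 0.0033), the largest fall of any repair gene in both on this scale, and -1.98 and -1.62 after scaling. Apex1 lies on chromosome 14 from 50924968 to 50927139 (GRCm38, plus strand), where 877 of its exon bases are shared with Pip4p1 on the opposite strand and 65.6% of its 50-base windows also occur in another gene. Whether the counting used strand is not given in the sources used here, so reads of these overlapping genes may not be separable. Its promoter window, the 300 bases around the annotated start in RefSeq (GRCm38.p6, chr14:50924699-50924998, plus strand), is shown because this gene had the largest fall on the log2(FPKM + 1) scale, with CCAAT and GC boxes (GGGCGG) of either strand in capitals.
Apex1: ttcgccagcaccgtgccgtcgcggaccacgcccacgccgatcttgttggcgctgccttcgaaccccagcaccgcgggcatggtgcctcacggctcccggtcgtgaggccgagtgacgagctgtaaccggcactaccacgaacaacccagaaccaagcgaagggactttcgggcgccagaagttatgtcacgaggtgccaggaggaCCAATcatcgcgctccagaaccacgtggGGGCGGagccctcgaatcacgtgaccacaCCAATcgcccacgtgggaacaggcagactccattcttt

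Xrcc1 encodes the scaffold protein of single-strand break repair. It was at 14.5 and 12.6 FPKM in WT, 3.11 and 3.11 FPKM in Tnfr1-/-, and 3.08 and 3.37 FPKM in Tnfr2-/- samples. The knockout values lay close together below WT, by 4.36-fold and 4.21-fold in the mean. The log2 change was -1.82 (SE 0.10, adjusted p = 8.32e-05) in Tnfr1-/- and -1.78 (SE 0.10, adjusted p = 0.000101) in Tnfr2-/-, and -0.83 and -0.91 after scaling. No window of the Xrcc1 transcript occurs in another gene.

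Parp3, an ADP-ribosyltransferase that responds to strand breaks, was at 16.2 and 15.6 FPKM in WT, 3.62 and 3.48 FPKM in Tnfr1-/-, and 3.16 and 3.38 FPKM in Tnfr2-/- samples. The knockout values lay close together and far below WT. Its log2 change was -1.89 (SE 0.08) and -1.98 (SE 0.08), with adjusted p = 4.31e-05 and 4.34e-05, and -0.89 and -1.10 after scaling. Neil2, a glycosylase for oxidised bases, was at 1.35 and 1.26 FPKM in WT, 0.0779 and 0.078 FPKM in Tnfr1-/-, and 0.0826 and 0.066 FPKM in Tnfr2-/- samples. It was the base excision gene with the greatest fold difference in the mean, 16.7-fold and 17.6-fold lower, although its low level made the log2 change -1.10 in both. With quantile normalization, the log2 change of Neil2 was -0.57 in both and it was no longer called.

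The other base excision genes behaved differently. Parp2, the other break-sensing ADP-ribosyltransferase of this list, and Lig1, the ligase of replication and long-patch repair, were called lower as deposited, and after scaling their log2 change lay between -0.24 and 0.08 without a call. In Tnfr2-/-, the call of Lig1 was lost without any 1 of the WT or Tnfr2-/- samples, at log2 changes of -0.92 to -0.93 (adjusted p = 0.0609 to 0.0792), and that of Parp2 without the first WT sample, at -0.76 (adjusted p = 0.0502). Polg, the catalytic subunit of the mitochondrial DNA polymerase, was the only gene of the list with higher knockout values, from 10.3 to 12.1 FPKM against 7.57 and 7.05 FPKM in WT. Its log2 change was 0.54 in Tnfr1-/- and 0.56 in Tnfr2-/-, short of the fold change threshold, and 1.54 and 1.43 after scaling, when it was called. Polg and the Fanconi gene Fanci overlap tail to tail on opposite strands by 921 exon bases. As deposited, Fanci moved the other way, from 2.22 and 1.74 FPKM in WT to between 0.651 and 1.09 FPKM in the knockouts. After scaling, its log2 change was -0.07 in Tnfr1-/- and 0.06 in Tnfr2-/-, without a call.

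**Figure D3:**
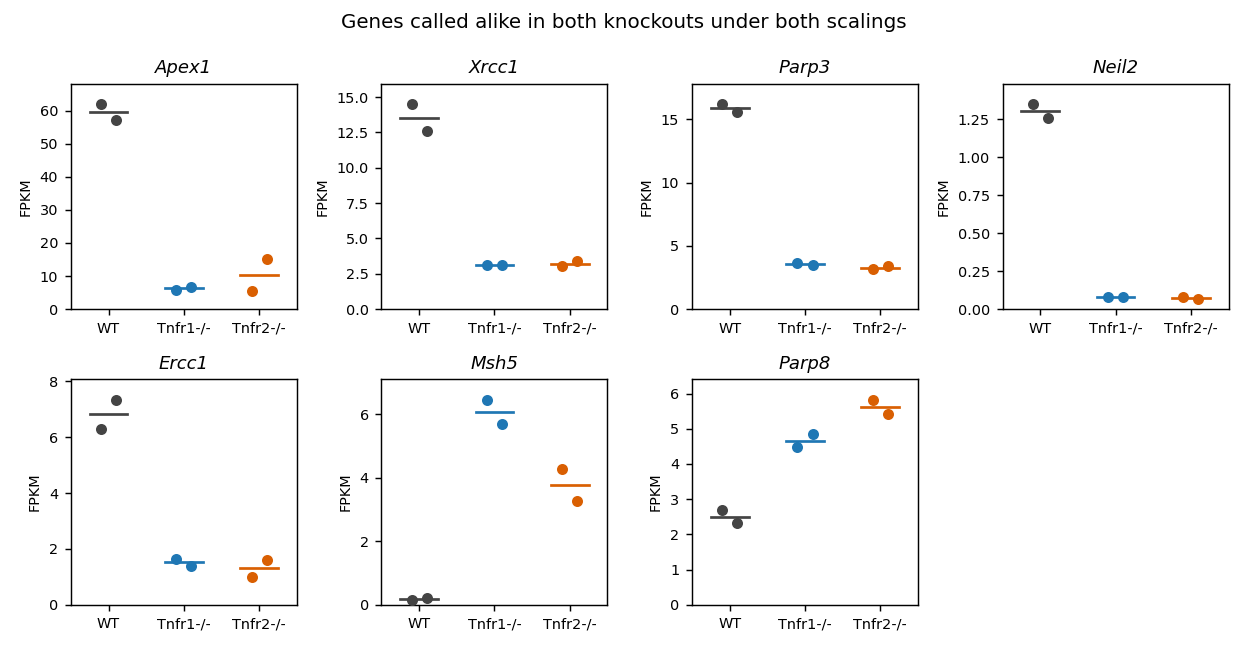
FPKM as deposited of the 7 repair genes called in the same direction in both knockouts under both scalings, with 1 point per sample and a bar at the mean of the 2 samples; each axis starts at 0. The genes were picked by their calls against WT, so the gap between WT and knockout points follows from that choice. Genes not called as deposited, such as Msh6, also did not overlap with WT. The second Tnfr2-/- sample of Apex1, at 15.3 FPKM, stands above the other knockout samples.

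Nucleotide excision repair genes were mostly lower as deposited and near no change after scaling, with Ercc1 and Xpa as exceptions in opposite directions. Of 10 genes, 8 were called lower in Tnfr2-/- and 7 in Tnfr1-/- MDSCs, and 0 higher (limma; also 0 at an unadjusted p under 0.05). After scaling, 1 was called lower and 1 higher in each. The shares of all genes called lower were 57.1% in Tnfr2-/- and 60.7% in Tnfr1-/- as deposited, and 21% and 22.2% after scaling. Ercc6l bears the family name but encodes a helicase of mitotic chromosomes.

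Ercc1, the partner subunit of a nuclease that cuts beside the lesion, was at 6.30 and 7.33 FPKM in WT, 1.64 and 1.40 FPKM in Tnfr1-/-, and 0.992 and 1.62 FPKM in Tnfr2-/- samples. The WT samples stood apart and the knockouts overlapped. The log2 change was -1.63 (SE 0.16, adjusted p = 0.000463) and -1.77 (SE 0.16, adjusted p = 0.000414), and -0.76 and -1.01 after scaling. Ercc1 lies on chromosome 7 from 19344778 to 19356524 (plus strand), and shares 106 exon bases with Cd3eap on the other strand.

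Xpa, which verifies the lesion, was the repair gene whose deposited level stayed nearest to WT. It was at 8.97 and 9.66 FPKM in WT, 8.31 and 8.35 FPKM in Tnfr1-/-, and 10.8 and 10.8 FPKM in Tnfr2-/- samples, so the knockouts lay on either side of WT. Against WT its log2 change was -0.14 (adjusted p = 0.12) and 0.19 (adjusted p = 0.0543), and after scaling 0.87 and 1.08, both called higher. Ddb1 was at 80.4 and 83.8 FPKM in WT, 26.4 and 25.4 FPKM in Tnfr1-/-, and 29.8 and 34.5 FPKM in Tnfr2-/- samples. It was called lower in both as deposited, with log2 changes of -1.63 and -1.33, and fell short of the fold change after scaling, at -0.51 and -0.35.

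Among the mismatch repair genes, Msh5 rose in both knockouts, and no other gene of the list was called higher as deposited. Msh5 encodes a MutS homologue that works with its partner Msh4 in meiotic recombination and is not known for recognising mismatches. It was at 0.165 and 0.201 FPKM in WT, 6.46 and 5.69 FPKM in Tnfr1-/-, and 4.27 and 3.28 FPKM in Tnfr2-/- samples. Every knockout sample was above WT, and the Tnfr1-/- samples were the highest. The mean was 33.2-fold higher in Tnfr1-/- and 20.6-fold higher in Tnfr2-/- than in WT. Its log2 change was 2.58 (SE 0.13, adjusted p = 5.8e-05) and 2.01 (SE 0.13, adjusted p = 0.000134), the largest rise of the 41 genes, and 3.04 and 2.32 after scaling. Msh5 lies on chromosome 17 from 35028605 to 35046745 (minus strand), and no window of its transcript occurs in another gene.

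Msh6, a MutS homologue that helps to find base mismatches, was at 7.42 and 7.04 FPKM in WT, 6.35 and 5.80 FPKM in Tnfr1-/-, and 4.67 and 5.55 FPKM in Tnfr2-/- samples. Msh3, a MutS homologue for loops, was at 3.08 and 2.97 FPKM in WT, 2.60 and 2.30 FPKM in Tnfr1-/-, and 2.03 and 1.93 FPKM in Tnfr2-/- samples. Mlh3, an endonuclease subunit of the MutL family, was at 2.13 and 2.39 FPKM in WT, 1.6 and 1.53 FPKM in Tnfr1-/-, and 1.15 and 1.30 FPKM in Tnfr2-/- samples. Every listed gene had passed a filter over the genotypes, so gaps between genotypes add nothing here. As deposited, all 3 genes were highest in WT and lowest in Tnfr2-/- samples, but none was called. Their direction against WT depended on the scaling. For Msh6, the log2 change of -0.22 in Tnfr1-/- became 0.76, and for Msh3 the change of -0.22 became 0.59, both then called higher.

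The promoter windows of the 3 MutS homologues are shown because these genes share a family and differ in response. Each holds an E2F motif (TTTCGCGC, TTTGGCGC or TTTCCCGC on either strand), which 6 of the 31 repair genes with a listed promoter have. Of the 38 promoters of these 31 genes, 18.4% held it. So did 1.84% of the 32851 RefSeq promoters of the same length used here, which do not cover every chromosome. An NRF1 core (GCGCATGC) was in 21.1% against 2.71%, a CCAAT box in 63.2% against 37.4%, and a GC box in 57.9% against 35.7%, all on both strands. A match describes these letters only, and no binding was measured. Capitals mark all 4 kinds of motif, and the GC box and CCAAT box at the start of the Msh5 window adjoin. The windows lie at chr17:35046573-35046872 (Msh5, minus strand), chr13:92354954-92355253 (Msh3, minus strand) and chr17:87974800-87975099 (Msh6, plus strand) of GRCm38.p6.
Msh5: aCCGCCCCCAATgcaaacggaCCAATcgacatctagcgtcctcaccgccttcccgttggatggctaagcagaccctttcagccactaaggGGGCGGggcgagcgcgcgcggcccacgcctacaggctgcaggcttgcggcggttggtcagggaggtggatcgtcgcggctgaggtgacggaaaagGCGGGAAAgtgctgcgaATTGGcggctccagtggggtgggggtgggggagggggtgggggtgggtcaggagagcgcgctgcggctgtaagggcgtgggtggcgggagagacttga
Msh3: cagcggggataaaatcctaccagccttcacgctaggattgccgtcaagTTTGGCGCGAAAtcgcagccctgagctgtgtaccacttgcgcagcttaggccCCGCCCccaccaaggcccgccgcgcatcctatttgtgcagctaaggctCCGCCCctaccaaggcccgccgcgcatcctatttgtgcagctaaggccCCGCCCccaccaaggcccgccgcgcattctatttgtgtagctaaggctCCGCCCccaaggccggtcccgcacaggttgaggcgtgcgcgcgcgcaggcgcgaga
Msh6: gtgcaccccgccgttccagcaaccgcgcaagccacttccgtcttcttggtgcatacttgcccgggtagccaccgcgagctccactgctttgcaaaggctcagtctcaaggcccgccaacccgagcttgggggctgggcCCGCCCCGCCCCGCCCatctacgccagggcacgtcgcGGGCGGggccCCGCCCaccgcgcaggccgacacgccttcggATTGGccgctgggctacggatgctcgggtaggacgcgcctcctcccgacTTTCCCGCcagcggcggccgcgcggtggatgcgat

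The Fanconi anaemia genes were mostly called lower as deposited, as were 57.1% of all genes in Tnfr2-/- and 60.7% in Tnfr1-/-. Of 5 genes, 5 were called lower in Tnfr1-/- and 4 in Tnfr2-/- MDSCs. After scaling 0 were called in either direction by limma, with medians of -0.07 and -0.11. In each knockout, 1 of 5 then had an adjusted p under 0.05 but fell short of the fold change. Fancg, a subunit of the core complex with the highest level of the list, was at 8.21 and 7.53 FPKM in WT, 4.03 and 3.41 FPKM in Tnfr1-/-, and 3.75 and 3.40 FPKM in Tnfr2-/- samples. The knockouts overlapped and lay below WT. Its log2 change was -0.91 (adjusted p = 0.000924) and -0.96 (adjusted p = 0.000882), and 0.05 and -0.12 after scaling. Fanca, another core subunit, was at 3.44 and 3.31 FPKM in WT, 1.05 and 0.70 FPKM in Tnfr1-/-, and 1.14 and 1.97 FPKM in Tnfr2-/- samples, with the second Tnfr2-/- sample between WT and the rest. In Tnfr2-/- its call was lost without the first Tnfr2-/- sample (log2 change -0.56) and without the first WT sample (-0.77).

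Most homologous recombination genes were lower in the knockouts as deposited, whereas Rad51c and Rad51d had higher values. Of 9 genes, 6 were called lower in each knockout as deposited, where 57.1% of all genes were in Tnfr2-/- and 60.7% in Tnfr1-/-. Rad51c was called higher in Tnfr1-/-. That call was lost without the second WT sample, at a log2 change of 0.53, and without the first Tnfr1-/- sample, at 0.52. After scaling, Rad51c and Rad51d were called higher in both, and Rad51ap1 lower in Tnfr2-/-.

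Rad51ap1, an accessory protein of strand exchange, was at 7.68 and 7.19 FPKM in WT, 2.67 and 1.23 FPKM in Tnfr1-/-, and 1.61 and 1.67 FPKM in Tnfr2-/- samples. It was lowest in the second Tnfr1-/- sample, and the WT samples were the highest. Rad54l, a motor protein of recombination, was at 4.43 and 4.54 FPKM in WT, 1.54 and 0.678 FPKM in Tnfr1-/-, and 1.49 and 1.14 FPKM in Tnfr2-/- samples, and 21% of its windows also occur in Lrrc41 on the opposite strand.

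Rad51c, which works in complexes of early recombination, was at 0.387 and 0.25 FPKM in WT, 1.13 and 0.891 FPKM in Tnfr1-/-, and 0.828 and 0.899 FPKM in Tnfr2-/- samples. Rad51d, which joins such complexes, was at 2.48 and 2.48 FPKM in WT, 3.36 and 3.53 FPKM in Tnfr1-/-, and 3.21 and 3.05 FPKM in Tnfr2-/- samples. For both, all knockout samples were above WT. The log2 change of Rad51c was 0.61 (SE 0.08, adjusted p = 0.00116) in Tnfr1-/- and 0.50 (adjusted p = 0.0025) in Tnfr2-/-, and that of Rad51d was 0.35 and 0.25, short of the fold change. Rad51b, also of this pathway, had low levels of 0.421 and 0.601 FPKM in WT and 0.0277 to 0.0734 FPKM in the knockouts, and was not called on the log2(FPKM + 1) scale.

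Of the 4 genes of damage signalling and tolerance, Trp53 and Rad9a were called lower in both knockouts as deposited. Among all genes, 57.1% were called lower in Tnfr2-/- and 60.7% in Tnfr1-/-. After scaling, neither Trp53 nor Rad9a was called, and Rad9b was called higher in Tnfr1-/-. The call of Rad9a was lost without the second Tnfr2-/- sample in Tnfr2-/- (log2 change -0.46) and without the first WT sample in Tnfr1-/- (-0.58). Trp53, the tumour suppressor that halts the cycle after damage, was at 42.5 and 41.7 FPKM in WT, 17.0 and 17.3 FPKM in Tnfr1-/-, and 15.1 and 21.8 FPKM in Tnfr2-/- samples. The WT samples were the highest and the Tnfr1-/- values lay between those of Tnfr2-/-. Its log2 change was -1.25 (SE 0.17, adjusted p = 0.00137) and -1.17 (SE 0.17, adjusted p = 0.0019), and -0.14 and -0.21 after scaling. Rad9b, a paralogue of the sliding clamp subunit Rad9a, was at 0.277 and 0.264 FPKM in WT, 0.825 and 0.655 FPKM in Tnfr1-/-, and 0.487 and 0.633 FPKM in Tnfr2-/- samples. All knockout values were above WT. Its log2 change was 0.45 in Tnfr1-/- and 0.30 in Tnfr2-/-, short of the fold change, and 0.77 (adjusted p = 0.000238) and 0.53 after scaling. Of its windows, 41.1% are shared, mainly with Pptc7 on the other strand, which was listed at 7.67 and 7.70 FPKM in WT and 11.7 to 15.9 FPKM in the knockouts.

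Parp8, an ADP-ribosyltransferase of the PARP family not known for break repair, was at 2.68 and 2.33 FPKM in WT, 4.49 and 4.84 FPKM in Tnfr1-/-, and 5.82 and 5.43 FPKM in Tnfr2-/- samples. As deposited, every knockout sample was above WT, and the Tnfr2-/- samples were the highest. Between the knockouts Parp8 was not called (log2 change 0.22, limma adjusted p = 0.25), and the knockout values overlapped after scaling. Its log2 change against WT was 0.69 (SE 0.10, adjusted p = 0.00152) in Tnfr1-/- and 0.92 (SE 0.10, adjusted p = 0.000666) in Tnfr2-/-, and 1.53 and 1.63 after scaling.

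Between the knockouts, which were deposited on a like scale, no repair gene passed the test. Of the 41 genes, 0 were called in Tnfr2-/- against Tnfr1-/- MDSCs by limma, 5 had an unadjusted p under 0.05, and 0 were called with median-ratio scaling or quantile normalization. Among all listed genes 0.842% were called higher and 0.61% lower as deposited, and 1.1% and 1.49% after median-ratio scaling. The median log2 change of the repair genes was 0.02, beside 0.06 for all genes. Msh5 had the lowest unadjusted p, with a log2 change of -0.57 (SE 0.13, adjusted p = 0.0822), then Xpa at 0.34 (SE 0.08, adjusted p = 0.0829), Ddb1 at 0.30 (adjusted p = 0.144), Mlh3 at -0.21 (adjusted p = 0.17) and Msh3 at -0.21 (adjusted p = 0.198). Fanca followed at 0.43 with a standard error of 0.18 (adjusted p = 0.237). These 6 genes were picked by their low p, so the lack of overlap between their knockout samples adds nothing, and none passed the test. Without the first Tnfr2-/- sample, Msh5 at -0.72 (adjusted p = 0.0305) and Apex1 at 1.16 (adjusted p = 0.026) were called, where the remaining Tnfr2-/- sample is assumed to vary like the other groups.

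**Figure D4:**
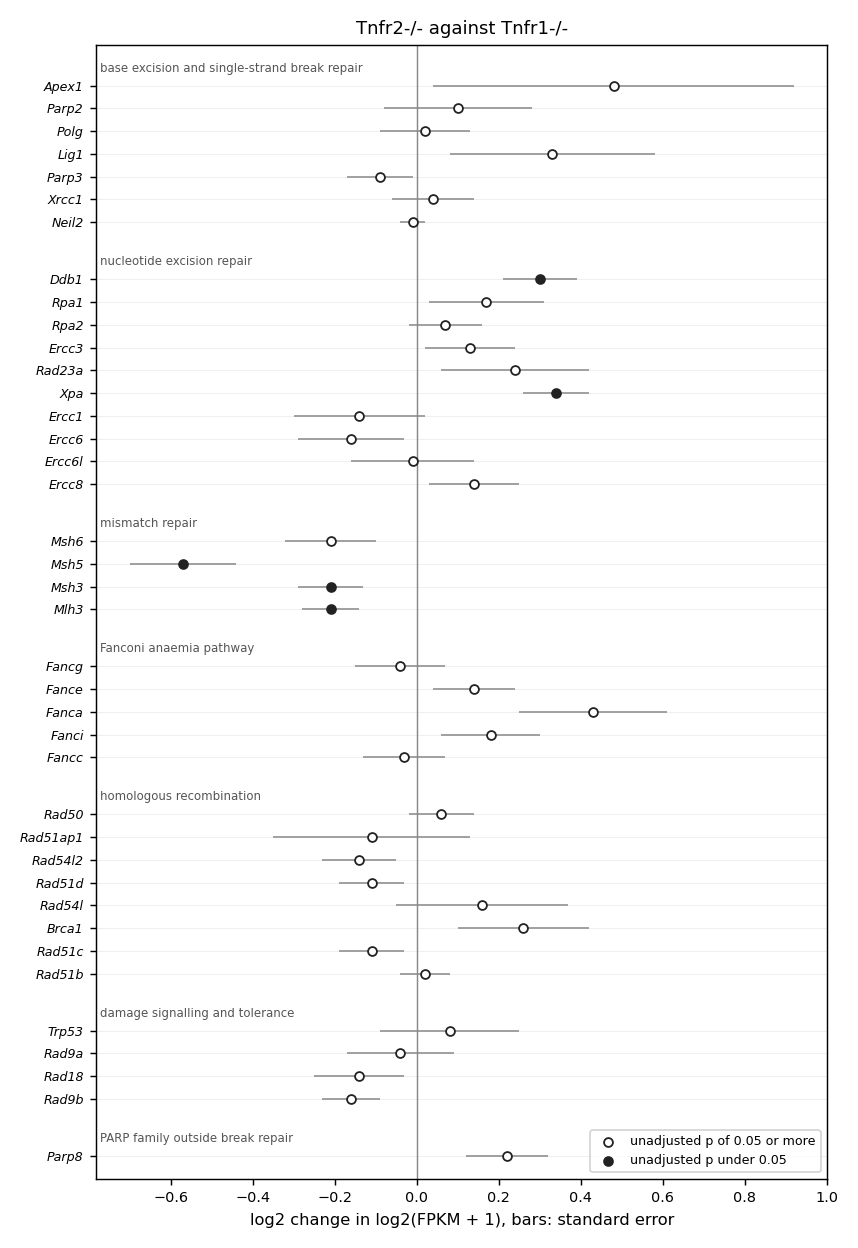
Log2 change of 39 repair genes in Tnfr2-/- against Tnfr1-/- MDSCs on the log2(FPKM + 1) scale as deposited, with bars of the standard error from limma; filled points have an unadjusted p under 0.05. The mismatch repair genes Msh5, at -0.57, and Mlh3 and Msh3, at -0.21, lie left of 0, and none of the genes passed the adjusted threshold.

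The spread between the 2 samples of a genotype was not alike for all repair genes. Over the 41 genes, the standard deviation between samples on the log2(FPKM + 1) scale was 0.0839 in WT, 0.186 in Tnfr1-/- and 0.224 in Tnfr2-/-. Over all listed genes it was 0.0789, 0.139 and 0.219, so this order was not particular to the repair genes. In Tnfr1-/- MDSCs, the second sample was lower for 27 genes and higher for 14. Of all 8191 listed genes, 4200 were lower and 3733 higher in that sample. The median difference was -0.09 over the 41, -0.17 over the 9 recombination genes and -0.00 over all listed genes. Wide gaps were those of Lig1 (-0.74), Rad51ap1 (-0.72), Rad54l (-0.60) and Brca1 (-0.42), genes of replication and recombination. The 9 listed proliferation markers of 14 were lower in that sample in 9 of 9 cases, with a median difference of -0.63, and their sum was 78.6 and 51.2 FPKM in Tnfr1-/-, 73.5 and 79.8 FPKM in Tnfr2-/- and 223 and 232 FPKM in WT samples. Their part in the levels of the repair genes was not tested. In Tnfr2-/- MDSCs, Apex1 had the widest gap, 1.35 on the log2 scale.

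**Figure D5:**
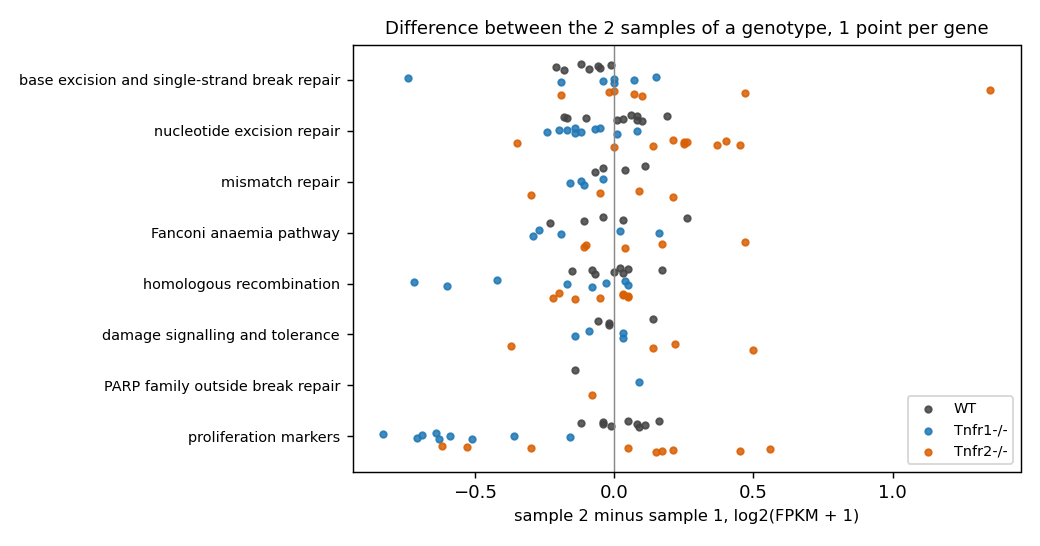
Difference between sample 2 and sample 1 of each genotype on the log2(FPKM + 1) scale, with 1 point per gene, for 39 repair genes by role and for the 9 listed proliferation markers. The Tnfr1-/- points of some recombination genes lie near those of the proliferation markers, down to -0.72 for Rad51ap1. Others, such as Rad51d (0.05) and Rad51b (-0.03), lie near 0. The orange point at 1.35 is Apex1 in Tnfr2-/-.

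Other genes of the same pathways are counted here in Tnfr2-/- against WT. Among all genes, 57.1% were called lower and 13.6% higher as deposited, and 21% and 21.9% after scaling. Of 11 further base excision genes, 8 were called lower, and 3 after scaling. Fen1, the flap nuclease, was at 43.2 and 45.7 FPKM in WT and at 6.90 to 11 FPKM in the knockouts, with log2 changes of -2.41 in Tnfr1-/- and -2.09 in Tnfr2-/-. Ung, the uracil glycosylase, was at 7.54 and 7.57 FPKM in WT and at 0.857 to 1.76 FPKM in the knockouts, with log2 changes of -2.08 and -1.86. Both stayed called lower after scaling. Of 10 further nucleotide excision genes, 8 were called lower and 1 higher, and 2 lower and 1 higher after scaling. Of 7 further mismatch repair genes, mostly of the resynthesis step, 7 were called lower as deposited and 0 after scaling. By limma, 2 of these then had an adjusted p under 0.05 but fell short of the fold change. Of 20 further cross-link and recombination genes, 11 were called lower and 1 higher, and 1 of each after scaling, so that 55% were lower as deposited, a share near that of all genes. The end joining genes Prkdc and Dclre1c were not called as deposited, with log2 changes of 0.06 and 0.58 in Tnfr2-/-, and both were called higher after scaling, at 0.65 and 1.30. Of 15 further signalling genes, 8 were called lower and 1 higher, and 1 lower and 5 higher after scaling, again with a share near that of all genes as deposited, at 53.3%. Chek2, a checkpoint kinase, stayed lower after scaling, from 7.38 and 7.36 FPKM in WT to between 0.817 and 1.42 FPKM in the knockouts. Mgmt, which removes alkyl groups directly, was at 4.85 and 4.85 FPKM in WT and at 0.0287 to 0.912 FPKM in the knockouts.

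Targets of p53, which Trp53 encodes, were changed in both directions. Of 13 listed, 9 were called lower and 2 higher in Tnfr2-/- against WT, where 57.1% of all genes were called lower and 13.6% higher. After scaling, 7 were called lower and 2 higher, beside 21% and 21.9% of all genes. The median log2 change of the 13 was -1.23 as deposited and -0.70 after scaling, beside -0.74 and -0.03 for all genes. Phlda3, an inhibitor of AKT signalling, was at 89.1 and 84.3 FPKM in WT and at 0.148 to 0.327 FPKM in the knockouts. Bax, an effector of cell death, was at 155 and 147 FPKM in WT and at 5.04 to 7.74 FPKM in the knockouts. The 2 higher targets, named after their values were seen, were Trp53inp1, with a log2 change of 2.28 in Tnfr2-/-, and Gadd45a, at 1.47.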

How the data were processed

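RNA of 6 pooled MDSC samples, 2 per genotype, was sequenced by the authors as single-end reads of 50 bases and deposited as FPKM per gene. The processing notes of the authors name mm10, FastQC and edgeR. The aligner and the tool that computed FPKM are not given in the sources used here. The deposited values were used as they are, in a table of 8191 genes that holds no read counts, so depth is unknown. A further deposited column holds the authors' ANOVA p-value per gene and was not used.

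Samples were grouped by the genotype in the labels and matched to columns by their descriptions. Genes were compared on log2(FPKM + 1) by linear models with moderated, trended variances (limma 3.58.1, R 4.3.3, two-sided), fitted to all 6 samples together, with Benjamini-Hochberg adjustment over 8191 genes and the thresholds given above. The model was run on simulated data in which few genes changed and all groups had the same spread. These data differ in both, so that run does not show how well the model holds here. The p-values measure the spread between pooled samples. Positions and 50-base windows come from GENCODE M21 on GRCm38, in which 41 of 41 symbols matched, and promoters from RefSeq. Python 3.11.15 and matplotlib 3.10.9 served for tables and figures.

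The members and lists were chosen with earlier results of these data known. All values are given for the 8 genes with the largest rise (7 had any) and fall in Tnfr2-/- against WT, those called alike in both knockouts and scalings, the 6 with the lowest p between the knockouts, and the highest gene of each role. Of other pathway lists, at most 2 genes with the largest change were named, apart from the 2 higher p53 targets, which were added after their values were seen. Some members are not reported here by name or drawn, and stay in the counts. Alternatives were a pseudocount of 0.1, a minimum mean of 1 FPKM, only the groups compared, a replicate block, eBayes without trend, median-ratio and quantile scaling, other fold thresholds, and leaving out each sample.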

Additional observations from a re-analysis of the deposited data

How the results depend on the processing

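The number of repair genes called against WT depended on the scaling, the pseudocount and the fold threshold. In Tnfr2-/- against WT it was 29 as deposited, 12 with median-ratio size factors, 12 with quantile normalization (7 higher, 5 lower) and 12 at a fold change over 2, but 38 with a pseudocount of 0.1 and 40 with no fold threshold. In Tnfr1-/- against WT it was 30, and 15, 15 (7 higher, 8 lower) and 16, then 35 and 39, under the same settings. Leaving out each sample in turn gave 25 to 30 and 29 to 31, and 6 and 4 genes lost their call without some sample. Besides those given with the results, these were Ercc3 and Ercc6 in Tnfr2-/- (Ercc3 -0.57 without the second WT and -0.48 without the first Tnfr2-/- sample, Ercc6 -0.58 without the first WT and -0.55 without the first Tnfr2-/- sample) and Rad54l2 and Fanci in Tnfr1-/- (Rad54l2 -0.58 without the first WT and -0.57 without the second Tnfr1-/- sample, Fanci -0.56 without the latter). Between the knockouts it was 0 under the other settings and 0 to 2 with a sample left out, the 2 being Apex1 and Msh5 without Tnfr2-/- sample 1. Median-ratio scaling turned the direction against WT of 14 of the 41 genes in Tnfr2-/- and 15 in Tnfr1-/-, of which 8 in each had been called lower as deposited and 0 of those 8 were called higher after it. Ercc3, for example, went from -0.61 to 0.31 and from -0.73 to 0.32, and Rad9a from -0.64 to 0.30 and from -0.60 to 0.48. Among the genes with all values given, it turned, in Tnfr2-/- then Tnfr1-/-, Mlh3 (0.06 and 0.39), Msh3 (0.26 and 0.59) and Msh6 (0.41 and 0.76), and in Tnfr1-/- Fancg (0.05) and Xpa (0.87). Quantile normalization turned 9 and 11 genes, among them Mlh3 (0.20 and 0.44), Msh3 (0.32 and 0.58), Msh6 (0.28 and 0.58) and, in Tnfr1-/-, Xpa (0.67). The cause was not tested. A replicate block gave 29, 30 and 0 calls and changed no call; samples sharing a number deviated together with correlations of 0.0217 to 0.0462 only, so the labels' numbers were not taken to pair them. With no counts, what depth limits could not be given.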
